A study of Mus musculus with 27 samples.

Results

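The comparison described here is that of J1 mESCs infected with the first of the shRNAs against Gas41 (shGas41-1, 3 libraries) with J1 mESCs infected with a non-targeting shRNA (shNT, which the labels call shCon, 3 libraries). These 6 RNA-seq libraries were chosen by the columns of the deposited count table for this shRNA, out of 27 RNA-seq and ChIP-seq samples in the series, and every gene of the table was used. J1 is an established mouse embryonic stem cell (ESC) line of unmodified genotype. All groups were kept without feeder cells on gelatin in serum with 1000 U/ml leukemia inhibitory factor (LIF), were infected with lentivirus in 8 µg/ml polybrene, were selected with 1 µg/ml puromycin, and were harvested 8 days after infection, so that the control cells carried a lentiviral hairpin and puromycin resistance as well. A further group with a hairpin against another site of the same mRNA (shGas41-2, 2 libraries) was compared with the same 3 shNT libraries, and its values are given beside those of shGas41-1 as a description. The cells were infected pools of 1 line, the labels do not say whether libraries of a group came from separate infections, and the p-values therefore measure the spread between these libraries, which may be technical.

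The libraries held between 59224537 and 78297813 counts. Levels are given as CPM, the counts of a gene relative to the TMM-scaled total of its library. A level of 0.0385 to 0.0504 CPM is equal to 3 counts, which was taken as the floor of the measurement. Such floors cover counting error only. The fixed ESC markers were high in all 6 libraries, with a summed level between 4496 and 4902 CPM in shNT and between 4271 and 5411 CPM in shGas41-1, and of these 5 genes only *Esrrb* passed the test. Markers of other cells were lower, but not all of them were near 0. Of 7 listed fibroblast or feeder markers, 5 lay below 1 CPM in both groups, and their summed level was between 10.9 and 19.1 CPM in shNT and between 6.88 and 11.1 CPM in shGas41-1. *Laptm5*, the only 1 of 3 blood and macrophage markers above 1 CPM, was at a mean of 94.6 CPM in shNT and 71.9 CPM in shGas41-1, the endothelial marker *Pecam1* at 43.8 and 60.2 CPM and the trophoblast marker *Tfap2c* at 33.0 and 21.4 CPM, and none of these 3 was called. Libraries differed within a group as well: shGas41-1 replicate 3 stood farthest from its group, and for many genes shNT replicate 3 stood at the opposite end of the controls. Among 14 listed markers of endothelium, primitive endoderm and trophoblast, *Cdh5*, *Gata6* and *Cdx2* rose and *Eomes* fell, as described with their lineages. In bulk RNA, fewer cells that express a gene and less RNA per cell cannot be told apart.

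Gas41, the protein encoded by *Yeats4*, is a subunit of the SRCAP and Tip60/p400 complexes, which place the histone variant H2A.Z into chromatin, and its YEATS domain binds acetylated lysines on histone H3. H2A.Z marks promoters and enhancers, and in ESCs it lies on many promoters of developmental genes that are kept silent. The comparison asks which functions and lineages change in mESCs when Gas41 is depleted while LIF is still present.

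The target sites of the hairpins are shown because they say which part of the mRNA each one recognizes. They are written 5′ to 3′ on the mRNA strand, and the capitals mark the bases that pair with bases 2 to 8 of the guide strand, its seed.

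shGas41-1: gtagcattccacgACGTTAAg

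shGas41-2: atcgttaagccaaTCGTTTAt

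Non-targeting control: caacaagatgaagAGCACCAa

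The shGas41-1 site lies in the 3′ UTR of *Yeats4* (mm9, chr10:116652513-116652533, minus strand) and the shGas41-2 site in its coding sequence (chr10:116659320-116659340, minus strand). *Yeats4* was at 61.8, 53.3 and 50.2 CPM in shNT 1 to 3 and at 3.47, 4.44 and 5.21 CPM in shGas41-1 1 to 3. All 3 shGas41-1 libraries were far below all shNT libraries, and the mean was 7.94% of that in shNT, with a log2 fold change of −3.66 ± 0.19 (SE of the fit, FDR = 3.75e-04, edgeR's quasi-likelihood test with Benjamini-Hochberg adjustment). With shGas41-2 it was at 8.88 and 8.03 CPM.

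More genes rose than fell. Of 25807 genes listed, 18274 passed the count filter, and 1444 of them were upregulated (7.9% of those tested) and 438 downregulated (2.4%), with a change of at least 2-fold and an FDR of at most 0.05 in edgeR's quasi-likelihood test with Benjamini-Hochberg adjustment. The median log2 fold change of all genes tested was 0.02. At an FDR of at most 0.05 and any fold, 3383 genes (18.5%) changed in the same test. The libraries of the groups did not overlap for 1442 of the upregulated and 437 of the downregulated genes, and over all tested genes 21.6% were higher and 19.8% lower in shGas41-1 without overlap. The number of upregulated genes fell to 905 without shNT replicate 2, to 946 without shNT replicate 3 and to 947 without shGas41-1 replicate 1, and that of downregulated genes to 290 without shNT replicate 3, with fewer libraries in each of these tests. Of 164 counts of rises or falls in the lists below, 86 moved by more than 1.5 times when some 1 library was left out, and those of the lists described are given with them.

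Most genes that rose were nearly silent in control mESCs. The median level of the upregulated genes was 0.495 CPM in shNT and 1.77 CPM in shGas41-1, and 912 of them (63.2%) lay below 1 CPM in shNT, where the median of all tested genes was 10.5 CPM. Of the upregulated genes 533 rose 4-fold or more. The genes that fell started higher and moved less, with a median level of 5.04 CPM in shNT and 2.05 CPM in shGas41-1, and only 33 of them fell 4-fold or more. Part of this contrast was set by the filter and by the use of control levels. A gene near 0 in shNT passed the count filter only where shGas41-1 was higher, and 252 rises and 0 falls lay below 0.1 CPM in shNT. The shares of the lists below are of tested members only, so that lists of low genes lean towards rises in the same way. Levels in shNT alone also lean low for genes that rose and high for genes that fell. By mean level over the 6 libraries, the share of tested genes that were upregulated was 17.3% between 0.3 and 1 CPM, 3.34% between 10 and 30 CPM and 1.74% between 30 and 100 CPM. It was again larger among the most abundant genes, with 4.28% between 100 and 300 CPM and 7.25% at 300 CPM or more, and the genes behind this second rise shared a feature that is described next.

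Among the upregulated genes, 125 reached a mean of 100 CPM or more in shGas41-1, and most of these moved in parallel. *Synrg*, which encodes an adaptor of vesicle traffic, was at 517, 529 and 376 CPM in shNT and at 1322, 1185 and 1961 CPM in shGas41-1, with a log2 fold change of 1.65 ± 0.22 (SE, FDR = 0.00308, edgeR's quasi-likelihood test). *Gas2l3*, a cytoskeletal linker gene on another chromosome, was at 523, 530 and 380 CPM and at 1313, 1175 and 1948 CPM. *Cflar*, an inhibitor of caspase-8 activation, was at 277, 284 and 198 CPM and at 765, 686 and 1164 CPM. In each of these genes shNT 3 was the lowest library and shGas41-1 3 the highest. The exons of all 3 genes, although the genes are unrelated, hold stretches of the same repeat, the B2 short interspersed element, which is known as a tRNA-derived element that RNA polymerase III transcribes and of which the mouse genome holds a great many copies.

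The exons of the upregulated genes at 100 CPM or more were searched for 30-base stretches that they shared, and those that most of them held are shown because they mark the genes of this parallel change. Both were chosen after the values had been seen, and capitals mark the bases that were matched exactly, which here are all of them.

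Stretch a: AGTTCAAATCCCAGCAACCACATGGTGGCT

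Stretch b: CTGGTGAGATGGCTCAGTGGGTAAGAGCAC

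Stretch a was in the exons of 92 and stretch b in those of 66 of these 125 genes, on either strand. The mm9 genome holds 26166 exact copies of stretch a and 10165 of stretch b, counted on both strands. In *Synrg* the copies lie in the UTR in sense orientation (stretch b at chr11:83855406-83855435, stretch a at chr11:83855460-83855489), in *Gas2l3* in the UTR in antisense orientation (chr10:88872514-88872543 and chr10:88872568-88872597), and in *Cflar* in the UTR in sense orientation (chr1:58813997-58814026 and chr1:58814051-58814080).

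Genes that hold either stretch rose more often than other genes, also among genes too low in shGas41-1 to have been used to find the stretches. Of 18199 tested genes matched to the annotation, 322 (1.77%) held a stretch, and of these 152 (47.2%) were upregulated and 0 downregulated, with a median log2 fold change of 0.94. Of the 17877 genes with neither, 1261 (7.05%) were upregulated and 437 (2.44%) downregulated, with a median of 0.01. At a fold threshold of 1.5, 2 of the 322 were downregulated. By mean level over the 6 libraries, the share upregulated at 300 CPM or more was 77.3% of 44 genes with a stretch and 1.31% of the genes without. The stretches had been found in genes at 100 CPM or more in shGas41-1, and among genes below that level in shGas41-1 34.4% of 163 genes with a stretch and 7.68% of those without were upregulated. From 10 to below 30 CPM in shGas41-1 the shares were 35.8% of 53 and 3.53%, and from 30 to below 100 CPM 29.1% of 79 and 1.41%. No test is given for these shares, since the stretches were picked from genes that had risen. Of 86 genes with both stretches 71 (82.6%) were upregulated, and the share was 48.5% of 171 genes that held a stretch only in sense orientation and 46.3% of 149 that held one only in antisense orientation. The copies of the upregulated holders lay in a UTR in 73 genes, in an exon of a non-coding transcript in 77 and in coding sequence in 2.

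**Figure D1:**
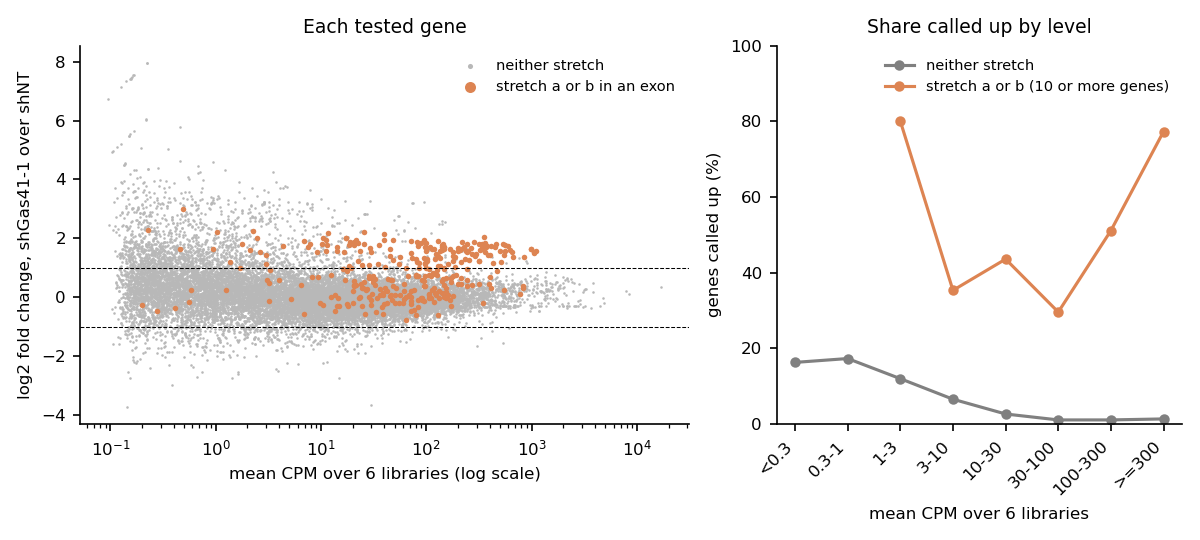
Left, the log2 fold change of every tested gene (shGas41-1 against shNT, dashed lines at a 2-fold change) over its mean level in CPM on a log axis, with the 322 genes whose exons hold a shared stretch in colour. Right, the share of genes upregulated at each level, for genes with and without a stretch, in bins with 10 or more such genes. The coloured genes form a band of rises at high levels, where few of the other genes moved.

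For the 96 genes with a stretch that were upregulated and at 100 CPM or more, the median ratio to the mean of shNT was 1.08, 1.12 and 0.80 in shNT 1 to 3 and 2.65, 2.36 and 3.93 in shGas41-1 1 to 3. The order of the libraries was thus the same as in *Synrg*, and the summed level of these genes was 15450, 15920 and 11540 CPM in shNT and 37250, 33650 and 54800 CPM in shGas41-1. With shGas41-2, 142 of the 322 genes were upregulated and 0 downregulated against the same controls, and *Synrg* was at 1331 and 1486 CPM. How reads that map to many places were counted is not given in the sources used here, and the part that transcripts of the repeat itself had in these counts was not tested. Values of genes that hold a stretch are therefore marked as such in what follows. Without them, 28 of 1818 genes (1.54%) at 100 CPM or more in shGas41-1 were upregulated.

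**Figure D2:**
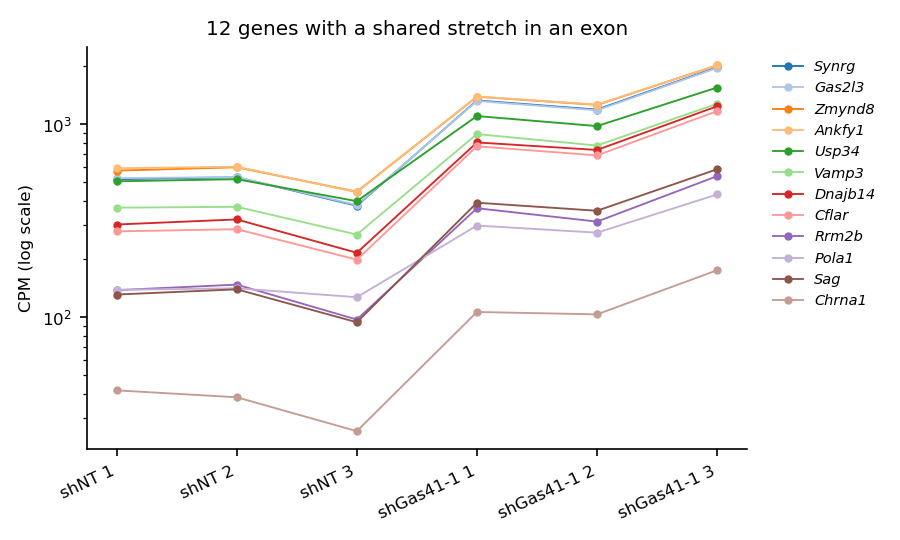
Level in CPM (log axis) of 12 upregulated genes with a shared stretch in each of the 6 libraries, 1 line per gene. The genes were chosen after their values had been seen. The lines run in parallel, lowest in shNT 3 and highest in shGas41-1 3. Of all 322 genes with a stretch 152 were upregulated, and holders that were not upregulated are not drawn.

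No core pluripotency factor was called, while several genes that respond to LIF and mark the naive state were lower. Of 12 core pluripotency factors 0 passed the thresholds in edgeR's quasi-likelihood test. At an unadjusted p below 0.05 1 of them was higher and 1 lower, and these 2 had an FDR of at most 0.05 with less than a 2-fold change. *Pou5f1* (Oct4) was at 1427, 1324 and 1159 CPM in shNT and at 1204, 1263 and 1590 CPM in shGas41-1, with overlapping groups (log2 fold change 0.05, standard error 0.15). *Sox2* was at 372, 424 and 522 CPM against 370, 398 and 320 CPM (log2 fold change −0.28), and *Nanog*, which holds stretch a, at 840, 713 and 688 CPM against 748, 683 and 961 CPM (log2 fold change 0.09).

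Among 21 naive pluripotency genes 3 fell and 1 rose. *Tfcp2l1*, a factor that carries the LIF signal, was at 592, 740 and 1054 CPM in shNT and at 273, 365 and 177 CPM in shGas41-1, with a log2 fold change of −1.55 ± 0.29 (SE, FDR = 0.0092, edgeR's quasi-likelihood test). *Klf4*, a direct target of Stat3, fell from 225, 230 and 312 CPM to 137, 120 and 94.4 CPM (log2 fold change −1.13, FDR = 0.00554), and *Esrrb*, an orphan nuclear receptor of the naive network, had a log2 fold change of −1.04 (FDR = 0.0204). The groups did not overlap in any of these genes, and shGas41-1 3 was the lowest library in each. Without shNT replicate 3, only the fall of *Tfcp2l1* passed the thresholds, and that of *Esrrb* was also lost without shNT replicate 2, shGas41-1 replicate 1 or shGas41-1 replicate 3. *Klf2* was not called (log2 fold change −0.14). *Dppa3* (Stella), a maternal and germ cell factor that is patchy in mESC cultures, rose from 0.446, 0.254 and 0.332 CPM to 1.49, 2.89 and 3.3 CPM (log2 fold change 2.90, FDR = 0.00295).

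In the LIF and Stat3 list, 15 of 19 genes were lower, 8 of them without overlap (19.8% of all tested genes were), and the median log2 fold change was −0.46. Those that passed the thresholds were *Tfcp2l1*, *Klf4* and *Bcl3* (log2 fold change −1.13), and without shGas41-1 replicate 2 there were 5. With shGas41-2 none of the 19 was called and the median was −0.14. Of 17 primed epiblast genes, which are expressed after implantation, 3 rose: *Wnt8a* (log2 fold change 2.80), *Lef1* (2.37) and *Fgf5* (2.08, FDR = 0.0389). *Lef1*, a nuclear partner of beta-catenin, was at 1.21, 1.26 and 1.10 CPM in shNT and at 5.97, 7.96 and 4.46 CPM in shGas41-1. *Fgf5*, the usual marker of primed cells, remained below 1 CPM, at 0.132, 0.183 and 0.0266 CPM against 0.304, 0.693 and 0.437 CPM, and its call was lost whichever library was left out. *Nkx1-2* was the only gene of this list that fell.

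Genes of the 2-cell-like state rose as a group. In this state, a small and changing fraction of mESCs expresses genes that are normally active when the embryo's own genome is first switched on. Of 23 tested genes of the list, 18 were upregulated and 0 downregulated, 22 were higher without overlap (21.6% of all tested genes were), and the median log2 fold change was 2.58. The count fell to 7 without shNT replicate 2, to 10 without shNT replicate 3 and to 9 without shGas41-1 replicate 1. *Zscan4c*, a telomere-associated zinc finger gene, was at 92.2, 16.8 and 11.0 CPM in shNT and at 254, 148 and 263 CPM in shGas41-1 (log2 fold change 2.47, standard error 0.72, FDR = 0.0445, edgeR's quasi-likelihood test). The control libraries of *Zscan4c* thus spread widely, with shNT 1 far above the others, its call was lost without any 1 of shNT replicates 2 and 3 and shGas41-1 replicates 1 and 3, and its neighbour *Zscan4b* did not pass the thresholds (log2 fold change 2.28, FDR = 0.0549).

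Of the 18 upregulated 2-cell-like genes, 9 share 50% or more of their exon sequence with another annotated gene, so that the counts of single copies are uncertain. Members with little shared sequence moved in the same direction. *Arg2*, an arginase, went from 0.677, 0.353 and 0.239 CPM to 4.69, 3.13 and 5.82 CPM (log2 fold change 3.44), *Tdpoz4* from 0.165, 0.0706 and 0 CPM to 2.10, 1.71 and 1.67 CPM (4.59) and *Pramel7* from 0.347, 0.169 and 0.0665 CPM to 1.65, 1.57 and 2.67 CPM (3.37). In all 3 genes shNT 1 was the highest control, as it was for *Zscan4c*. *Trim43a*, a gene of the cleavage-stage embryo with 66% shared exon sequence, rose from 0.545, 0.367 and 0.133 CPM to 8.10, 4.17 and 7.48 CPM (log2 fold change 4.26, FDR = 0.00238) and was among the largest rises of the whole table. With shGas41-2, 6 genes of the list were upregulated, and *Zscan4c* was at 206 and 86.4 CPM.

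Germ cell and meiosis genes changed in both directions, with 11 of 46 up and 3 down. *Dazl*, an RNA-binding protein of germ cells, rose from 6.78, 4.49 and 3.94 CPM to 18.0, 12.8 and 11.3 CPM (log2 fold change 1.47, FDR = 0.00684), *Mael*, a factor of the piRNA pathway that silences transposons, had a log2 fold change of 2.14 (FDR = 0.00267), and *Smc1b*, the meiotic cohesin subunit, one of 1.93 (FDR = 0.00251), all from edgeR's quasi-likelihood test. The other genes of the list that rose were *Figla*, *Syce3*, *Prdm9*, *Rhox13*, *Brdt*, *Slc25a31*, *Tex19.1* and *Tdrd1*. *Sohlh2*, a germline bHLH factor, fell from 35.1, 30.3 and 30.8 CPM to 10.1, 9.37 and 9.01 CPM (log2 fold change −1.75, standard error 0.13, FDR = 0.00147), and *Rec8*, another meiotic cohesin subunit, fell as well (log2 fold change −1.56), as did *Xlr3a*. With shGas41-2 *Sohlh2* was at 23 and 20.0 CPM, between the other groups, and was not called.

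Of 16 DNA methylation genes only *Dnmt3l* was called. It encodes the cofactor of the de novo DNA methyltransferases, which is known from the germline and the early embryo. *Dnmt3l* was at 39.7, 45.9 and 34.2 CPM in shNT and at 176, 224 and 138 CPM in shGas41-1, with a log2 fold change of 2.17 ± 0.20 (SE, FDR = 0.00187, edgeR's quasi-likelihood test), and at 121 and 168 CPM with shGas41-2. All knockdown libraries were above all control libraries.

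**Figure D3:**
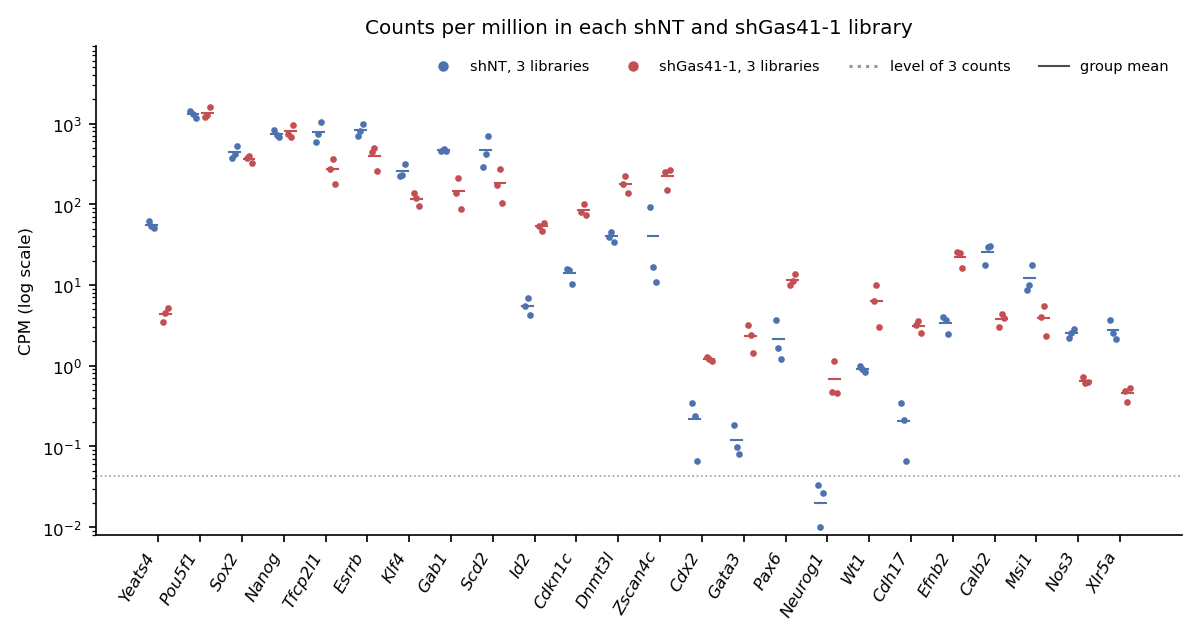
Level in CPM (log axis) of 24 genes in the 3 shNT and the 3 shGas41-1 libraries, 1 point per library, with a line at the mean of each group. A library with 0 counts is drawn at the foot of its axis, and the dotted line marks the level of 3 counts. *Yeats4*, *Tfcp2l1* and *Calb2* are lower in every shGas41-1 library, *Id2*, *Gata3* and *Dnmt3l* are higher in every one, and *Pou5f1* overlaps.

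Trophoblast genes were upregulated in part. Of 27 tested genes of the list 9 rose and 2 fell, with a median log2 fold change of 0.96. *Gata3*, a transcription factor that can direct ESCs towards trophoblast, was at 0.182, 0.0988 and 0.0798 CPM in shNT and at 3.21, 2.38 and 1.45 CPM in shGas41-1 (log2 fold change 4.30, standard error 0.43, FDR = 0.0021, edgeR's quasi-likelihood test). *Cdx2*, which is required for trophectoderm, rose from 0.347, 0.240 and 0.0665 CPM to 1.28, 1.22 and 1.14 CPM (log2 fold change 2.50, FDR = 0.00776), and *Fgfr2*, the receptor through which FGF4 keeps trophoblast stem cells dividing, had a log2 fold change of 2.42. The groups did not overlap in these genes, and all 3 remained below 7 CPM. *Eomes* (log2 fold change −1.0, FDR = 0.0343) and *Tead4* (−1.50, FDR = 0.00924), both needed in the same lineage, fell, the former only with shNT replicates 2 and 3 and shGas41-1 replicates 1 and 3 all included. The other genes that rose were *Sct*, *Gcm1*, *Rhox6*, *Rhox9*, *Cdh3* and *Synb*, the last of which holds a shared stretch. The falls numbered 1 without shNT replicate 2, shNT replicate 3, shGas41-1 replicate 1 or shGas41-1 replicate 3.

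Of 28 primitive and visceral endoderm genes, which mark the other extraembryonic lineage, 2 rose (*Gata6* with a log2 fold change of 1.76, and *Cubn*) and 1 fell (*Hnf4a*, −1.24). These counts were near the share of all tested genes that were called, and 24 of the 28 genes were higher in the mean. The rises numbered 1 without shNT replicate 1, shNT replicate 2, shGas41-1 replicate 1 or shGas41-1 replicate 2 and 0 without shNT replicate 3, and the fall was lost without shNT replicate 2 or shNT replicate 3.

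Some neural genes rose, among proneural factors as well as among products of neurons. Of 34 proneural and neuronal genes 13 were upregulated (38.2%) and 1 downregulated. The median log2 fold change of the list was only 0.16, and 13 of the 34 genes were lower. *Neurog1*, a proneural bHLH factor, was below 3 counts in each control library and at 0.475, 1.13 and 0.454 CPM in shGas41-1 (FDR = 0.00346, edgeR's quasi-likelihood test). No fold is given for it, since the controls were at the floor of the measurement. *Insm1*, a zinc finger gene of neuroendocrine progenitors, rose from 0.198, 0.169 and 0.0399 CPM to 1.35, 1.36 and 0.790 CPM (log2 fold change 3.13), and *Nefm*, a neurofilament subunit, had a log2 fold change of 2.05. The others that rose included *Atoh1*, *Calb1*, *Ebf3*, *Neurog3*, *Nefl*, *Ina* and *Scg3*.

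The 1 neuronal gene that fell did so strongly. *Calb2* (calretinin), a calcium-binding protein of interneurons, was at 17.7, 29.2 and 30.0 CPM in shNT and at 3.01, 4.40 and 3.94 CPM in shGas41-1 (log2 fold change −2.76, standard error 0.25, FDR = 0.00184, edgeR's quasi-likelihood test). With shGas41-2 it was at 5.71 and 6.90 CPM. Of the neural progenitor list (median 0.676 CPM in shNT) 22.7% rose and 9.09% fell, against 17.3% and 3.2% of all tested genes between 0.3 and 1 CPM. Of 22 neural progenitor genes 5 rose and 2 fell, and without shNT replicate 1, shNT replicate 3, shGas41-1 replicate 1 or shGas41-1 replicate 2 the rises numbered 3, while the falls numbered 1 without shNT replicate 2, shGas41-1 replicate 2 or shGas41-1 replicate 3 and 0 without shNT replicate 3 or shGas41-1 replicate 1. *Pax6*, a factor of the eye and forebrain, rose from 3.65, 1.64 and 1.21 CPM to 10.0, 11.1 and 13.6 CPM (log2 fold change 2.43, FDR = 0.00451), and *Sox21* had a log2 fold change of 1.44. *Msi1*, an RNA-binding protein of neural stem cells, fell (log2 fold change −1.62). No gene of the glial list rose, 2 of its 15 genes were higher at an unadjusted p below 0.05, and *Mobp* fell.

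Genes for receptors and guidance molecules of neurons rose in part, the receptor genes at a share near that of all genes at their level. Of the receptor list (median 0.431 CPM in shNT) 20% rose, and of the guidance list (2.62 CPM) 17.2%. Of 93 listed receptor genes 48 were too low to be tested. By mean level over the 6 libraries, 17.3% of all tested genes rose between 0.3 and 1 CPM and 12.7% between 1 and 3 CPM. Of 45 tested transmitter receptor genes 9 rose and 1 fell (0 without shGas41-1 replicate 1 and 2 without shGas41-1 replicate 3), and those that rose included *Drd3*, *Chrm3*, *Grm2*, *Adra1a*, *Gabra5*, *Adrb3*, *Grin2a* and *Chrna1*, the last of which holds both shared stretches and was at 41.6, 38.3 and 25.6 CPM in shNT and at 106, 103 and 174 CPM in shGas41-1. Of 64 axon guidance genes 11 rose and 2 fell, but 5 rose without shNT replicate 2, without shNT replicate 3 or without shGas41-1 replicate 1, and 1 fell without shNT replicate 3, shGas41-1 replicate 2 or shGas41-1 replicate 3. *Efnb2*, the ligand of Eph receptors that also marks arteries, was at 4.01, 3.67 and 2.46 CPM in shNT and at 25.8, 24.9 and 16.0 CPM in shGas41-1 (log2 fold change 2.72, standard error 0.25, FDR = 0.00187, edgeR's quasi-likelihood test). *Unc5d*, a netrin receptor, had a log2 fold change of 2.52. Of 40 synapse genes 3 rose and 2 fell, a share of 7.5% up that is near that of all genes. There the rises numbered 1 without shNT replicate 1 or shGas41-1 replicate 1, and the falls 4 without shNT replicate 1 and 1 without shNT replicate 2.

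Of 20 neural crest genes 8 rose and 0 fell, with a median log2 fold change of 0.93, and 15 were higher without overlap (21.6% of all tested genes were). *Msx1*, a homeobox gene of the neural plate border, went from 0.462, 0.945 and 0.412 CPM to 1.80, 3.65 and 1.82 CPM (log2 fold change 1.99, FDR = 0.013), *Msx2* had a log2 fold change of 1.49 and *Snai1*, which drives the loss of epithelial contacts, one of 1.08 (FDR = 0.0378, edgeR's quasi-likelihood test). The others included *Dlx5*, *Ret*, *Ets1* and *Tyr*, the last of which holds a shared stretch. Of 20 mesenchyme and fibroblast genes 1 rose, which was *Snai1* itself, and *Mmp14* and *Thy1* fell. The rise was lost without shNT replicate 1, shNT replicate 3, shGas41-1 replicate 1 or shGas41-1 replicate 2, 2 genes rose without shGas41-1 replicate 3, and 1 fell without shNT replicate 3 or shGas41-1 replicate 3.

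Mesoderm showed rises and falls. Of the primitive streak list (median 0.662 CPM in shNT) 22.7% rose and 13.6% fell. Of all tested genes between 0.3 and 1 CPM 17.3% rose and 3.2% fell, so that the streak rises were near that share. Of 22 primitive streak genes 5 rose and 3 fell, and the falls numbered 1 without shNT replicate 2 or shGas41-1 replicate 1 and 0 without shNT replicate 3, while the rises numbered 3 without shNT replicate 1 or shNT replicate 3. *T* (Brachyury), the defining gene of the streak, was at 0.380, 0.282 and 0.200 CPM in shNT and at 0.409, 0.578 and 0.454 CPM in shGas41-1, and was not called (log2 fold change 0.75, FDR = 0.151). *Evx1*, a homeobox gene of the posterior streak, rose from 0.842, 1.43 and 0.705 CPM to 4.40, 12.1 and 3.30 CPM (log2 fold change 2.73, FDR = 0.00934, edgeR's quasi-likelihood test) and *Dll1*, a Notch ligand, had a log2 fold change of 2.35. *Cdx1*, a caudal homeobox gene, fell (log2 fold change −1.64), as did *Tbx6* and *Eomes*. The other genes that rose were *Lhx1*, *Sp5* and *Wnt8a*.

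The lists of later mesodermal derivatives held more rises than falls, apart from blood, where the few calls depended on single libraries. Rises also outnumbered falls over all tested genes, with 7.9% up and 2.4% down. Of the cardiac and lateral mesoderm list (median 0.884 CPM in shNT) 17.65% rose, against 17.3% of all tested genes between 0.3 and 1 CPM. Of the muscle and endothelial lists (medians 1.82 and 2.13 CPM) 31.6% and 15% rose, and 0% and 10% fell. Between 1 and 3 CPM 12.7% of all tested genes rose and 4.57% fell. *Wt1*, of kidney, gonad and epicardium, was at 0.990, 0.917 and 0.824 CPM in shNT and at 6.29, 9.91 and 3.01 CPM in shGas41-1 (log2 fold change 2.82, FDR = 0.00353, edgeR's quasi-likelihood test), and *Meis1*, a cofactor of Hox proteins, rose from 0.743, 1.03 and 0.612 CPM to 3.16, 3.44 and 2.98 CPM (log2 fold change 2.00). With *Mef2c* these were the 3 of 17 cardiac and lateral mesoderm genes that rose, and none fell. Of 19 genes of paraxial mesoderm and skeletal muscle 6 rose and 0 fell: *Meox2*, *Cacna1s* (log2 fold change 3.21), *Pax7*, *Ckm*, *Mylpf* (1.08) and *Chrna1*, the last of which holds both shared stretches. The call of *Ckm* was lost whichever library was left out, and 1 gene of this list fell without shNT replicate 2 or shGas41-1 replicate 2. Among endothelial genes *Cdh5* (VE-cadherin) rose from 0.132, 0.155 and 0.0798 CPM to 1.22, 1.58 and 0.673 CPM (log2 fold change 3.24), *Erg* and *Flt1* rose, and *Nos3* (−1.96) and *Sox18* (−1.29) fell, among 20 tested. The endothelial rises numbered 1 without shGas41-1 replicate 1 and the falls 1 without shNT replicate 2, shNT replicate 3, shGas41-1 replicate 1 or shGas41-1 replicate 3. In the blood list 0 of 20 genes were called up, with 5 higher at an unadjusted p below 0.05, and *Rac2* and *Epor* down. Without shNT replicate 2, shNT replicate 3 or shGas41-1 replicate 1 no gene of the blood list was down, and without shNT replicate 1 1 was up.

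In the gut and liver list 5 of 13 tested genes rose and 3 fell, and 11 of the 24 listed genes were too low to be tested. *Cdh17*, an intestinal cadherin, was at 0.347, 0.212 and 0.0665 CPM in shNT and at 3.16, 3.58 and 2.56 CPM in shGas41-1 (log2 fold change 3.92, standard error 0.44, FDR = 0.00251, edgeR's quasi-likelihood test) and at 2.69 and 3.35 CPM with shGas41-2. *Lgals4*, an intestinal galectin, had a log2 fold change of 2.88, and *Apoa2*, *Foxa1* and *Pdx1* rose as well. *Cdx1*, *Fgg* and *Foxa3* fell. The rises numbered 3 without shNT replicate 2 or shGas41-1 replicate 1, and the falls 1 without shNT replicate 2 and 0 without shNT replicate 3.

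Epithelial genes leaned the other way. Of 32 genes of simple epithelium 4 fell and 2 rose, and 22 were lower in the mean, but the falls numbered 2 without shNT replicate 3, shGas41-1 replicate 1 or shGas41-1 replicate 3. *Dsg2*, a desmosomal cadherin, was at 38.5, 41.7 and 57.0 CPM in shNT and at 14.5, 17.8 and 11.1 CPM in shGas41-1 (log2 fold change −1.66, FDR = 0.00304, edgeR's quasi-likelihood test), and *Spint1*, an inhibitor of membrane serine proteases, at 85.0, 95.2 and 85.0 CPM against 44.0, 44.0 and 35 CPM (log2 fold change −1.11). *St14*, the protease that *Spint1* inhibits, and *Lsr* fell, and *Esrp1* and *Ehf* rose. In this list 1 gene rose without shNT replicate 1, shNT replicate 2, shNT replicate 3, shGas41-1 replicate 1 or shGas41-1 replicate 2. With shGas41-2, *Spint1* was at 75.8 and 73.0 CPM. Of 27 motile cilium genes 0 rose, 4 were higher at an unadjusted p below 0.05, and *Efhc2*, *Tekt1* and *Ccdc114* fell, with a median log2 fold change of −0.33. Without shNT replicate 1, shGas41-1 replicate 2 or shGas41-1 replicate 3 1 of the cilium genes rose.

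Among transcription factor families, 8 of 23 tested Hox genes rose and 0 fell, although 5 rose without shNT replicate 2 or shGas41-1 replicate 1 and 4 without shNT replicate 3. They were *Hoxd1*, *Hoxd9*, *Hoxd10*, *Hoxd11*, *Hoxd13*, *Hoxa10*, *Hoxa13* and *Hoxb4*, and 16 of the 39 Hox genes were too low to be tested. The call of *Hoxb4* was lost without any 1 library other than shGas41-1 replicate 3. *Hoxd11* rose from 0.248, 0.212 and 0.133 CPM to 1.15, 1.49 and 0.673 CPM (log2 fold change 2.50, FDR = 0.00478, edgeR's quasi-likelihood test), and *Hoxd13* from 1.42, 1.58 and 1.01 CPM to 3.76, 2.79 and 2.69 CPM (1.21). Of 335 KRAB-type zinc finger genes 9 rose (2.69%) and 13 fell (3.88%), against 7.9% and 2.4% of all tested genes. Their median level was 13.6 CPM in shNT. Of all tested genes with a mean of 10 to 30 CPM over the 6 libraries 3.34% rose and 2.26% fell. The share of zinc finger genes that rose was thus near that of genes at their level. The zinc finger rises numbered 5 without shNT replicate 2 or shGas41-1 replicate 1 and 4 without shNT replicate 3, and the falls 8 without shNT replicate 2 and 7 without shGas41-1 replicate 1.

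**Figure D4:**
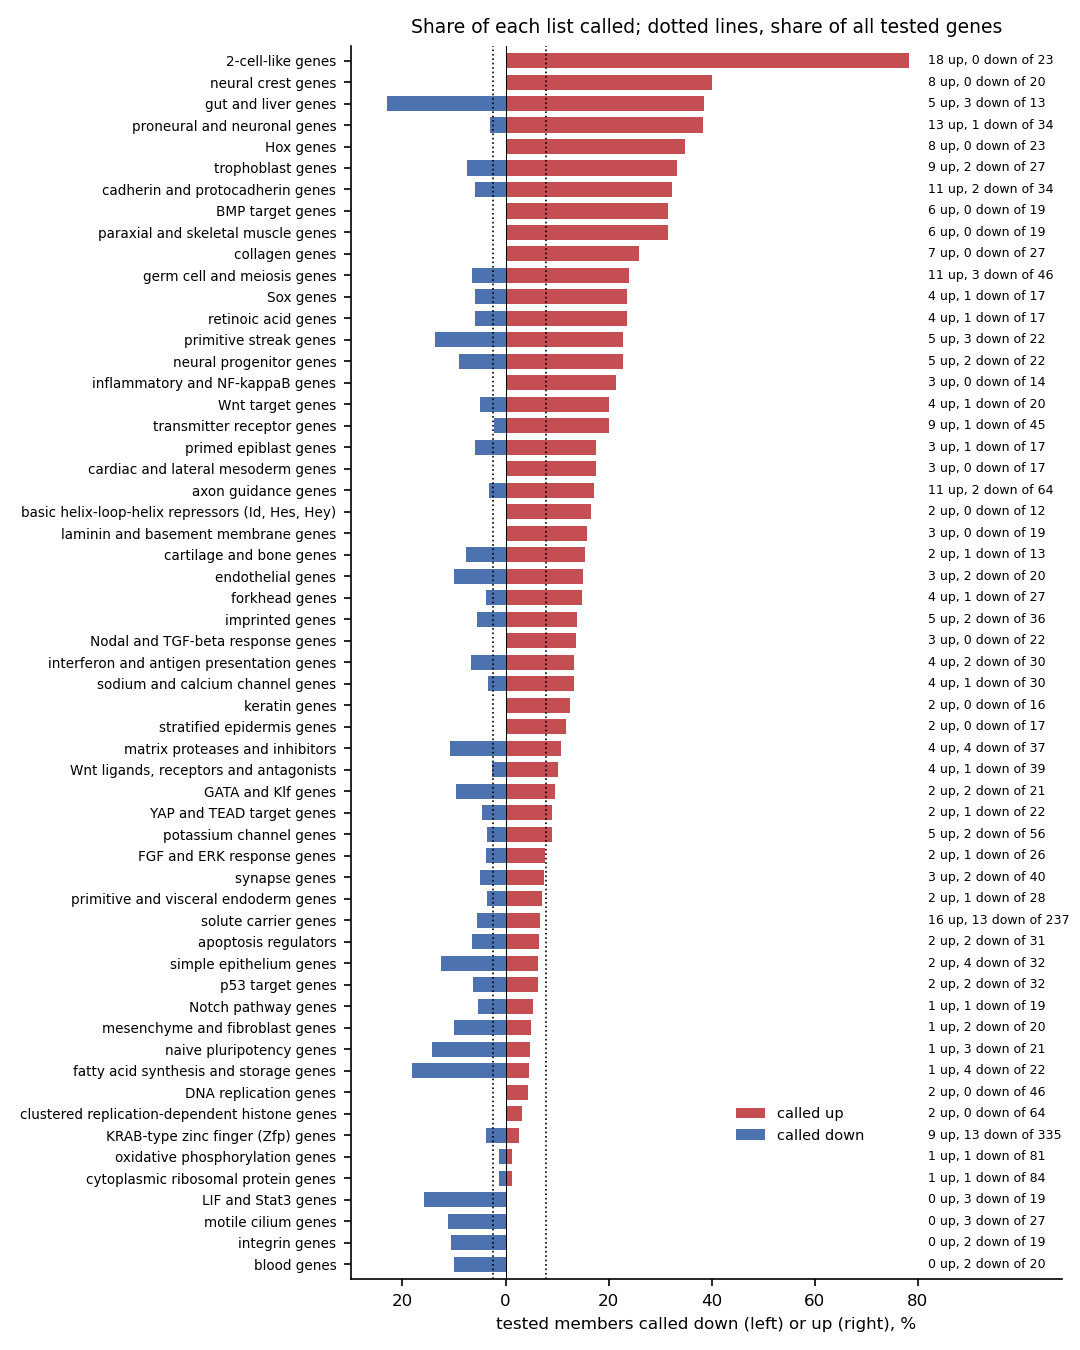
Share of the tested members of each list that were upregulated (right) or downregulated (left), for lists with 12 or more tested members and 2 or more called, with the dotted lines at the share of all tested genes (7.9% up, 2.4% down). The 2-cell-like list has the largest share of rises among the lists drawn, and the LIF and Stat3, motile cilium, integrin and blood lists have falls only, although 1 to 3 genes of the last 3 lists rose when some 1 library was left out.

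Signalling genes differed by pathway. Of 19 targets of BMP signalling, which acts through Smad proteins, 6 rose and 0 fell, with a median log2 fold change of 0.99, and 1 fell without shGas41-1 replicate 1. *Id2*, an inhibitor of bHLH factors, was at 5.43, 6.97 and 4.2 CPM in shNT and at 53.8, 47.2 and 58.6 CPM in shGas41-1, with a log2 fold change of 3.27 ± 0.21 (SE, FDR = 7.07e-04, edgeR's quasi-likelihood test). All shGas41-1 libraries of *Id2* were near 50 CPM and all controls below 7 CPM, and with shGas41-2 it was at 20.1 and 24.0 CPM. *Id3* had a log2 fold change of 1.20 (FDR = 0.00417), whereas *Id1* was just under the fold threshold (0.96, FDR = 0.00695). *Gata3*, *Dlx5*, *Msx1* and *Msx2* were the others that rose.

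Wnt genes moved in both directions. Of 39 ligands, receptors and antagonists 4 rose (*Wnt8a*, *Dkk1*, *Fzd1* and *Ror1*) and 1 fell, and the rises numbered 2 without shGas41-1 replicate 1 and 8 without shGas41-1 replicate 3, while the falls numbered 3 without shNT replicate 1 and 2 without shNT replicate 3 or shGas41-1 replicate 3. *Dkk1*, a secreted antagonist, went from 0.0990, 0.113 and 0.0931 CPM to 0.409, 0.321 and 0.488 CPM (log2 fold change 1.97). *Sfrp4*, another secreted antagonist, fell from 13.3, 12.8 and 12.3 CPM to 3.47, 3.97 and 3.97 CPM, with little spread in either group (log2 fold change −1.75, standard error 0.14, FDR = 0.00147, edgeR's quasi-likelihood test). Of 20 Wnt target genes *Cdx2*, *Lef1*, *Dkk1* and *Sp5* rose and *Cdx1* fell, the latter not without shNT replicate 3. In the retinoic acid list, 4 of 17 genes rose (*Cyp26a1*, *Crabp2*, *Aldh1a2* and *Aldh1a3*, which holds both shared stretches) and *Tgm2* fell, with 0 falls without shNT replicate 3 and 2 without shNT replicate 1 or shGas41-1 replicate 3.

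*Ctgf*, a matricellular protein induced by TGF-beta and by YAP, rose from 8.01, 6.18 and 4.12 CPM to 39.1, 33.4 and 28.2 CPM (log2 fold change 2.46, standard error 0.25, FDR = 0.00223, edgeR's quasi-likelihood test), and *Cyr61*, of the same family, had a log2 fold change of 1.43. The YAP and TEAD list held few other calls, with 2 of 22 up and *Nt5e* down (2 genes without shGas41-1 replicate 2) and a median log2 fold change of −0.16. *Dusp4*, a phosphatase induced by ERK, rose from 5.22, 4.02 and 5.29 CPM to 19.7, 19.1 and 13.2 CPM (log2 fold change 1.84), as 1 of 2 of the 26 FGF and ERK response genes that rose, and 1 fell (3 without shGas41-1 replicate 2 and 0 without shNT replicate 2, shNT replicate 3, shGas41-1 replicate 1 or shGas41-1 replicate 3).

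Adhesion and matrix genes rose in part. Of 66 listed cadherins and protocadherins 32 were too low to be tested, and the tested ones had a median of 0.619 CPM in shNT. Of all tested genes between 0.3 and 1 CPM 17.3% rose. Of 34 tested cadherins and protocadherins 11 rose (32.4%) and 2 fell. Those that rose were *Cdh3*, *Cdh4*, *Cdh5*, *Cdh6*, *Cdh9*, *Cdh10*, *Cdh13*, *Cdh17*, *Pcdh8*, *Pcdh10* and *Pcdh17*, of which *Cdh9* went from 0.380, 0.254 and 0.332 CPM to 2.07, 1.82 and 1.60 CPM (log2 fold change 2.51, FDR = 0.00223, edgeR's quasi-likelihood test), and *Celsr1* and *Pcdhb14* fell, with 1 fall without shNT replicate 2, shNT replicate 3 or shGas41-1 replicate 1. The summed level of the family overlapped between the groups, at 524, 592 and 718 CPM in shNT and 661, 694 and 473 CPM in shGas41-1. Of 27 tested collagen genes 7 rose and 0 fell, but 2 rose without shNT replicate 2 and 3 without shNT replicate 3 or shGas41-1 replicate 1. The collagen share of 25.9% up (median 0.744 CPM in shNT) stood against 17.3% of all tested genes between 0.3 and 1 CPM. Of 43 listed collagen genes 16 were too low to be tested. Of 19 integrin genes 0 rose, 4 were higher at an unadjusted p below 0.05, and *Itgal* and *Itgb7* fell. Without shNT replicate 1 3 integrin genes rose, and without shGas41-1 replicate 3 1 did.

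Growth control genes were few among the calls. *Cdkn1c* (p57), an imprinted inhibitor of cyclin-dependent kinases, was at 15.8, 15.5 and 10.3 CPM in shNT and at 80.9, 99.7 and 73.1 CPM in shGas41-1 (log2 fold change 2.61, standard error 0.21, FDR = 0.00147, edgeR's quasi-likelihood test), and at 53.5 and 77.1 CPM with shGas41-2. It was the only one of 8 CDK inhibitors that was called (2 rose without shGas41-1 replicate 3, and 1 fell without shNT replicate 1, shGas41-1 replicate 2 or shGas41-1 replicate 3), and *Cdkn1a* (p21), a target of p53, was just under the fold threshold in the other direction (log2 fold change −0.93, FDR = 0.00782). *Gadd45g*, a stress and differentiation gene that restrains growth, rose from 0.512, 0.325 and 0.120 CPM to 4.67, 2.88 and 4.81 CPM (log2 fold change 3.71). *Ccnd3*, a D-type cyclin, fell from 214, 251 and 261 CPM to 122, 135 and 90.0 CPM (log2 fold change −1.07).

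Genes of the cell cycle machinery were rarely called. Of 46 DNA replication genes 2 rose and 0 fell (1 without shGas41-1 replicate 2), and both of those that rose, *Pola1* (138, 141 and 126 CPM against 297, 273 and 430 CPM) and *Pola2*, hold the shared stretches, as does *Rrm2b*, 1 of the 2 p53 targets that rose. Of 38 mitosis genes 0 rose and *Cenpe* fell (not without shNT replicate 2, shNT replicate 3, shGas41-1 replicate 1 or shGas41-1 replicate 3), with 1 higher and 11 lower at an unadjusted p below 0.05. An FDR of at most 0.05 was reached by 4 of the 38. None of 32 homologous recombination genes was called, and 7 were lower at an unadjusted p below 0.05 (edgeR's quasi-likelihood test). Among these 32 genes 5 had an FDR of at most 0.05. Among 32 p53 target genes *Trp73* also rose, and *Gdf15* (log2 fold change −1.36) and *Pmaip1* (−1.04) fell. The falls numbered 4 without shNT replicate 1 or shGas41-1 replicate 2 and 1 without shNT replicate 3, shGas41-1 replicate 1 or shGas41-1 replicate 3.

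Among imprinted genes, 5 of 36 rose (*Cdkn1c*, *Igf2*, *Magel2*, *Dio3* and *Dlk1*) and 2 fell, with 1 fall without shNT replicate 3 or shGas41-1 replicate 3. *Igf2*, a growth factor expressed from the paternal allele, rose from 2.62, 3.95 and 2.95 CPM to 10.4, 14.7 and 10.6 CPM (log2 fold change 1.90, FDR = 0.00251, edgeR's quasi-likelihood test). *Grb10*, an adaptor that restrains insulin signalling, fell from 207, 228 and 253 CPM to 91.3, 113 and 64.0 CPM (log2 fold change −1.36, FDR = 0.00401), and *Slc38a4*, an amino acid transporter, from 170, 155 and 183 CPM to 87.2, 88.3 and 77.6 CPM (−1.0).

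Genes of lipid and sugar metabolism were mostly lower, in small steps. Of 26 cholesterol synthesis genes 24 had a lower mean, 16 of them without overlap, and the median log2 fold change was −0.50, but only *Nsdhl* passed the fold threshold (20.9, 21.4 and 29.4 CPM against 11.5, 12.2 and 10.4 CPM, log2 fold change −1.07, FDR = 0.00491, edgeR's quasi-likelihood test). No gene of the list did so without shNT replicate 3, and 2 did without shGas41-1 replicate 3. The summed level of the list was 1689, 1697 and 2047 CPM in shNT and 1356, 1362 and 1280 CPM in shGas41-1. Of 22 genes of fatty acid synthesis and storage 4 fell, which were the desaturases *Scd1*, *Scd2*, *Fads1* and *Fads2*, and *Agpat9* rose. *Scd2* was at 286, 425 and 708 CPM in shNT and at 171, 271 and 104 CPM in shGas41-1 (log2 fold change −1.38, FDR = 0.0419), a gene in which the controls spread widely and whose call was lost without any 1 of the same 4 libraries as that of *Esrrb*, and *Fads1* was at 45.7, 51.5 and 61.5 CPM against 23.3, 25.1 and 17.1 CPM (−1.28, FDR = 0.00352). The falls numbered 1 without shNT replicate 2 or shNT replicate 3 and 2 without shGas41-1 replicate 1. Of 24 genes of glycolysis and glucose uptake 23 were lower, 9 of them without overlap, with a median of −0.35, and *Hk1* fell (log2 fold change −1.24), with 3 falls without shNT replicate 1 or shGas41-1 replicate 2. The summed level of the glycolysis list overlapped between the groups, at 12310, 14630 and 15090 CPM in shNT and 11270, 13210 and 10190 CPM in shGas41-1. Over all tested genes 19.8% were lower without overlap.

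Ribosomal protein genes were higher by less than the fold threshold. Of 84 cytoplasmic ribosomal protein genes 82 had a higher mean and 46 were higher without overlap (21.6% of all tested genes were), with a median log2 fold change of 0.43. Their summed level was 74580, 68350 and 61220 CPM in shNT and 82400, 78650 and 114700 CPM in shGas41-1. The sum was thus lowest in shNT 3 and highest in shGas41-1 3, and shGas41-1 3 lay apart from the other libraries. The calls in this list were of variants of tissue-restricted expression, *Rpl39l* up (log2 fold change 1.06) and *Rpl3l* down. No gene of the list was up without shNT replicate 2, shNT replicate 3 or shGas41-1 replicate 3 and 2 were without shGas41-1 replicate 2, and none was down without shNT replicate 3 or shGas41-1 replicate 1. Ribosome biogenesis genes had a median of 0.03, with 0 of 35 called and 2 higher and 1 lower at an unadjusted p below 0.05 (edgeR's quasi-likelihood test). Of 37 proteasome genes 0 were called, with 1 lower at an unadjusted p below 0.05, which also had an FDR of at most 0.05.

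Stress pathways gave few calls. In the integrated stress response list 28 of 33 genes were lower, 19 without overlap (19.8% of all tested genes were), with a median log2 fold change of −0.37 and 1 call, *Nupr1* (13.1, 12.1 and 15.7 CPM against 6.83, 4.97 and 7.28 CPM, log2 fold change −1.10). Without shNT replicate 3 no gene of this list was called down, and without shNT replicate 1 or shNT replicate 2 2 were. None of 20 unfolded protein response genes and none of 20 heat shock genes was called, and 4 and 2 of them were higher at an unadjusted p below 0.05 (edgeR's quasi-likelihood test). An FDR of at most 0.05 was reached by 2 and 1 genes of these lists. Of 23 NRF2 genes 0 rose and *Srxn1* fell. In the interferon and antigen presentation list 4 of 30 genes rose (*Gbp2*, *Irgm1*, *H2-T23* and *Xaf1*, the last 2 of which hold a shared stretch) and *Ifit3* and *Igtp* fell, with 1 fall without shNT replicate 2, shGas41-1 replicate 1 or shGas41-1 replicate 3. *Irgm1*, a GTPase of cell-autonomous immunity, was at 1.95, 1.68 and 2.26 CPM in shNT and at 11.9, 16.5 and 6.71 CPM in shGas41-1 (log2 fold change 2.57, FDR = 0.00288).

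The genes for the partners of Gas41 were not called. Of 24 genes for subunits of the Tip60/p400 and SRCAP complexes and for H2A.Z, *Yeats4* was the only one called, and 1 was higher and 7 were lower at an unadjusted p below 0.05 (edgeR's quasi-likelihood test). Of these 24 genes 7, *Yeats4* among them, had an FDR of at most 0.05, the others with less than a 2-fold change. Over all tested genes 18.5% had such an FDR. *H2afz*, the more abundant of the H2A.Z genes here, was at 1372, 1264 and 1137 CPM in shNT and at 1212, 1128 and 1832 CPM in shGas41-1, with overlapping groups, and *H2afv*, the gene of the second H2A.Z form, had a log2 fold change of −0.09. Of 34 Polycomb genes none was called, with 3 higher and 5 lower at an unadjusted p below 0.05 and 2 at an FDR of at most 0.05.

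The largest rises with a mean of 1 CPM or more in shGas41-1, apart from those named above, included *Ccno* (log2 fold change 3.62), a cyclin-related gene of multiciliated cells, *Mgat4c* (3.59), a glycosyltransferase gene, *Alppl2* (3.58), an alkaline phosphatase of germ cells and the early embryo, and *Crct1* (3.43). *Ccno* was at 1.75, 1.13 and 0.678 CPM in shNT and at 17.4, 14.6 and 11.6 CPM in shGas41-1. After *Yeats4* and *Calb2*, the largest falls were those of *Xlr5b* (log2 fold change −2.75), *Xlr5a* (−2.61), *Xlr5c* (−2.56), *Sgk2* (−2.54), *Acap1* (−2.51), *Dnajc22* (−2.42), *DXBay18* (−2.36), *Pirt* (−2.27), *Nkx6-3* (−2.24) and *Arhgap30* (−2.23), with FDR between 0.00147 and 0.00684 from edgeR's quasi-likelihood test. By difference in level, *Gab1*, an adaptor between receptor kinases and ERK, fell from 454, 480 and 458 CPM to 140, 210 and 86.5 CPM (log2 fold change −1.68), whereas it was at 307 and 335 CPM with shGas41-2, and *Fblim1*, a cell contact gene, fell from 537, 556 and 652 CPM to 296, 291 and 191 CPM (−1.17).

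Genes called in the same direction lay next to each other in 53 runs of 3 or more neighbouring tested genes. On chromosome X (chrX:70310126-70467795), 9 neighbours fell: *Pnma3*, *Xlr4a*, *Xlr3a*, *Xlr5a*, *Gm14685*, *DXBay18*, *Xlr5b*, *Xlr3b* and *Xlr4b*, the Xlr genes being a lymphocyte-regulated family with imprinted members. *Xlr5a* was at 3.65, 2.55 and 2.17 CPM in shNT and at 0.489, 0.359 and 0.521 CPM in shGas41-1. *Xlr5a*, *Xlr5b* and *Xlr5c* have 90% or more of their exon sequence in common with other genes, so that their separate counts are uncertain. *Xlr5a* and *Xlr5b* are therefore not independent members of the run, to which *Xlr5c* does not belong. On chromosome 2 (chr2:74506367-74538265) 4 neighbours of the Hoxd cluster rose, *Hoxd13*, *Hoxd11*, *Hoxd10* and *Hoxd9*, and on chromosome 6 (chr6:52194392-52268372) *Hoxa11as*, *Hoxa13*, *5730457N03Rik* and *Evx1* rose together. On chromosome 1 (chr1:65059263-65128862) *Akr1cl* and 4 gamma-crystallin genes, *Cryge*, *Crygd*, *Crygc* and *Crygb*, rose. The runs with the most members were of repeated Gm genes, 15 on chromosome 5 and 13 on chromosome 12, in which reads may be shared between copies. The number of runs was 24 without shNT replicate 2, 29 without shNT replicate 3 and 26 without shGas41-1 replicate 1, and at most 58 with another library left out.

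**Figure D5:**
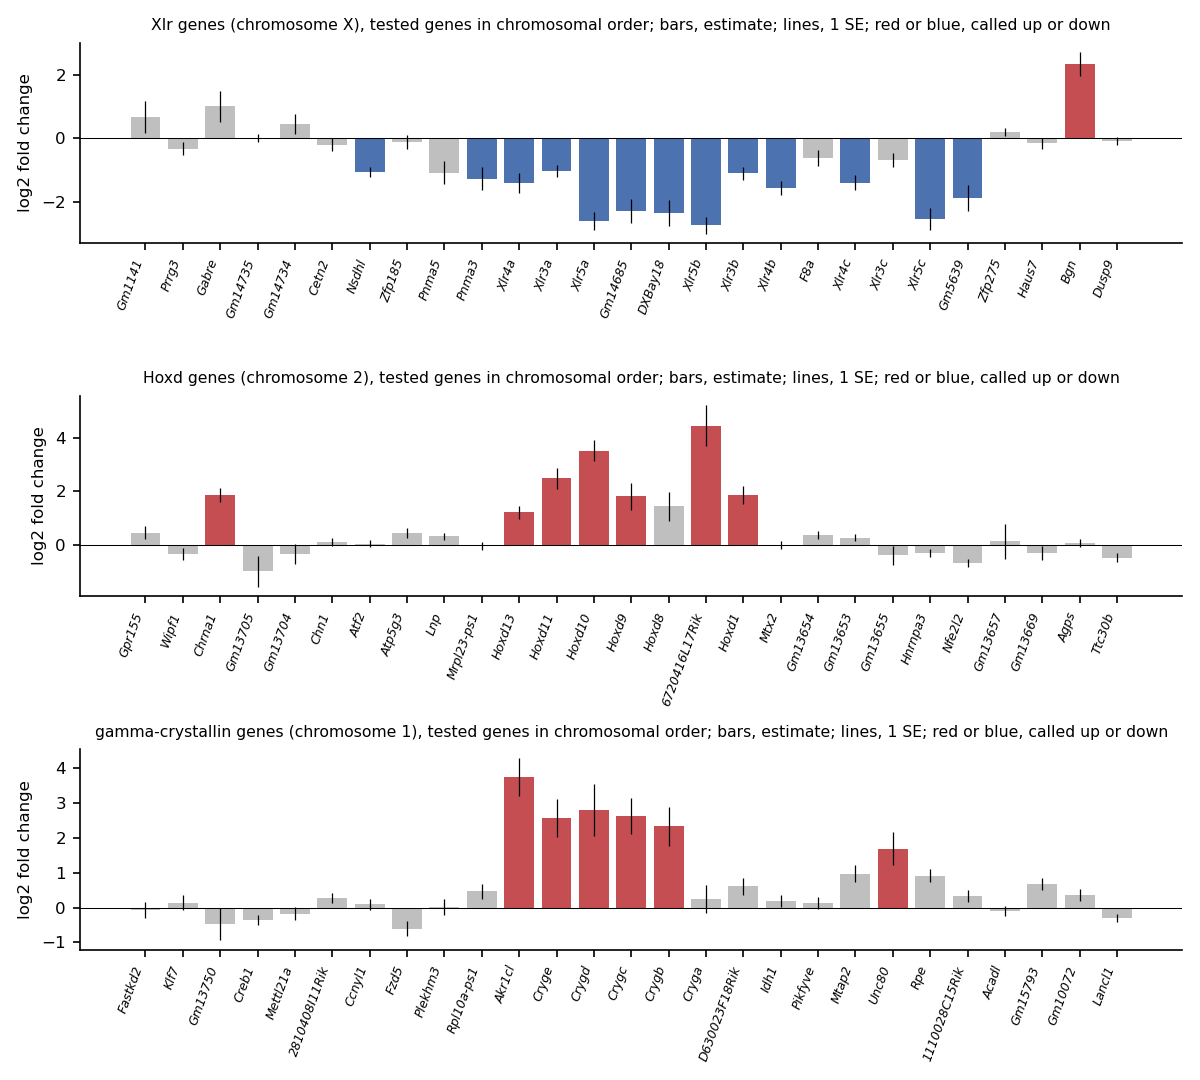
Log2 fold change (bars) with its standard error (lines) of neighbouring tested genes at the Xlr genes, the Hoxd cluster and the gamma-crystallin genes, in chromosomal order, with called genes in colour. Within each run the genes moved in 1 direction, and most of the genes beside the runs are grey, which marks genes that were not called.

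Upregulated genes were less often protein-coding than downregulated ones (80.8% against 93.1%, with 83.8% of all tested genes), and 6.23% of them were lincRNAs, against 3.42% of all. Among protein-coding genes, promoters rich in CpG (an observed to expected ratio of 0.6 or more from 250 bases before to 50 after the start) made up 61.7% of all, 39.0% of upregulated and 37.6% of downregulated genes. Levels differ between these sets. At 0.3 to 1 CPM the shares were 34.8% of all and 33.7% of upregulated genes, and at 10 to 30 CPM 70.2% and 47.9%. Genes on chromosome X were 4.48% of the tested, 4.32% of the upregulated and 7.09% of the downregulated genes, the Xlr run among the last.

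The seed of the guide could act on other mRNAs, so the 3′ UTRs of 15172 tested genes were read for the letters ACGTTAA on the mRNA strand, the match to guide bases 2 to 8 of shGas41-1. They were present in 336 genes (2.22%). The median log2 fold change was −0.05 with and −0.02 without a match, and 8.33% and 7.41% were upregulated and 2.08% and 2.70% downregulated. The difference of −0.03 was smaller than its spread of 0.06 over the 3 shGas41-1 libraries. The 3′ UTRs with a match were longer, with a median of 2751 against 1126 bases. A match of these letters is not a site of action. The seed match of the non-targeting hairpin (AGCACCA) was not read in these 3′ UTRs, and its part in the comparison was not tested.

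Fewer genes were called with shGas41-2. Against the same 3 shNT libraries, 728 genes were upregulated (3.96%) and 160 downregulated (0.869%) of 18405 tested, with 2 libraries in place of 3, and *Yeats4* had a log2 fold change of −2.71. Since the controls are shared, the agreement of the comparisons is not independent. Tested directly over all 8 libraries, 0 of 19146 genes differed between the shRNAs at the thresholds, while 1348 (7.04%) had an unadjusted p below 0.05, 711 of them higher in shGas41-1 (edgeR's quasi-likelihood test). Some genes that are named above and were singled out after their values had been seen lay apart between the shRNAs. *Id2* had a direct log2 fold change (shGas41-1 against shGas41-2) of 1.28 (standard error 0.21, FDR = 0.137), *Gab1* one of −1.13 (standard error 0.28, FDR = 0.321) and *Sohlh2* one of −1.17 (standard error 0.13, FDR = 0.123), all from edgeR's quasi-likelihood test. In each of these genes the libraries of the shRNAs did not overlap, and a direct test that misses the threshold does not show that they act alike.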

How the data were processed

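RNA-seq libraries of J1 mESCs were used for shNT (3), shGas41-1 (3) and, side by side only, shGas41-2 (2), grouped by their labels. The authors prepared them with the TruSeq RNA kit, aligned reads to mm9 with TopHat2 (2.0.10 in the submitters' processing notes) and ran htseq-count for each gene. The deposited values used are whole-number counts without normalization. The tables also hold the authors' own log2 fold changes, p-values and FDR, which were not used. How reads with several places in the genome were counted, and whether strand was used, is not given in the sources used here, and genes that overlap on opposite strands cannot then be told apart. The study's other RNA-seq and ChIP-seq files were not analysed here.

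Counts were compared in R 4.3.3 with edgeR 4.0.16 after filterByExpr (minimum count 10, minimum total count 15) and TMM scaling. The quasi-likelihood test was used, p-values were adjusted by Benjamini-Hochberg over all genes tested, and genes were called at a log2 fold change of at least 1 in size with an FDR of at most 0.05. No list was tested, and 82 lists of functions and lineages were described by their counts and medians. The lists, the genes and the alternatives were chosen with earlier results of these data known. Named are *Yeats4*, the genes the study measured by qPCR, the 12 largest rises and falls with non-overlapping groups, the 10 largest differences in CPM and up to 3 called genes a list and direction with the first 2 members of a list where they were measured, without Gm and Rik names and the like. Where further called members of a list are given, they were chosen after their values were seen. A few genes that these rules name are not reported here. Annotation, positions and exon sequences came from the mm9 genome and the GENCODE annotation of that build, and hairpin targets from the study's oligonucleotide table. Exon stretches of 30 bases were matched exactly. Libraries of a group differed by far more than sampling noise (chi-square for each degree of freedom from 30.6 to 236). Same-numbered libraries did not deviate together (correlations 0.01, 0.14 and −0.39). The test was tried on simulated counts of this comparison over 18068 genes, of whose changed genes that passed the filter it called 40% at 2-fold, 82% at 3-fold, 91.8% at 4-fold and 100% at 8-fold, with 2 false calls. Each simulated gene was drawn on its own, without the shifts that many genes of a library share here. The number of false calls in the real comparison therefore cannot be read from it. The alternatives were library size alone, upper-quartile scaling, DESeq2 1.42.0, edgeR's exact test, other filters and thresholds, the replicate number as a block, and each library left out.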

Additional observations from a re-analysis of the deposited data

How the results depend on the processing

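Of the 1444 upregulated and 438 downregulated genes 76.7% were rises, and more genes rose than fell under every alternative run. The share of rises was 70.2% with library size alone, 82.6% with upper-quartile scaling and 62.5% (1866 up) at a fold change of 1.5, and between these for the other alternatives. With genes at a mean of 1 CPM or more, 783 were upregulated. With an FDR of at most 0.01, 697 were upregulated and 228 downregulated, and at a fold change of 1.5 1118 were downregulated. With each library left out in turn, between 905 and 1510 genes were upregulated and between 290 and 549 downregulated. The runs of neighbouring called genes numbered 19 at a mean of at least 1 CPM, 13 with an FDR of at most 0.01 and between 24 and 58 with a library left out. The calls among genes with a shared stretch, alternatives chosen after the data were seen, were between 128 and 186 up in every setting, and 0 down except for the 2 at a fold change of 1.5. Among genes with neither stretch and less than 50% shared exon sequence, also chosen after the data were seen, 1032 were upregulated and 411 downregulated.

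The labels do not say whether the replicate number shared between the groups pairs the libraries. Same-numbered libraries did not deviate together, but 3 correlations cannot decide this. With the number as a replicate block 1019 genes were upregulated and 302 downregulated.

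Of 229 genes named in the report, 219 were called, and 134 of these kept their call in each of the up to 13 settings in which they could be tested. DESeq2 lost 2 and the replicate block 44, and leaving out a library lost 63 without shNT replicate 3, 57 without shNT replicate 2, 55 without shGas41-1 replicate 1 and between 18 and 25 without another. *Ckm* lost its call in 10 settings, *Hoxb4* in 9, *Cdh10*, *Cdh3*, *Cenpe*, *Cubn*, *Eomes*, *Esrrb*, *Fgf5*, *Pnma3* and *Sp5* in 7, *Fgg*, *Hoxd9*, *Lsr*, *Mef2c*, *Mylpf*, *Scd2*, *Scg3*, *Tbx6* and *Zscan4c* in 6, *Cdh13*, *Dlk1*, *Ehf*, *Fads2*, *Pcdhb14*, *Pmaip1*, *Ror1*, *Rpl39l*, *Snai1* and *Sox18* in 5, *Apoa2*, *Gabra5*, *Hoxa10*, *Lhx1*, *Rac2*, *Rhox9*, *Scd1*, *Slc38a4*, *St14* and *Tgm2* in 4, 20 others in 3, 11 in 2 and 14 in 1. Of the genes that were not called, *Pou5f1* had a log2 fold change of −0.032 by library size alone, and between −0.086 and 0.13 with a library left out. With a library left out, that of *Nanog* was between −0.068 and 0.20, that of *Klf2* between −0.39 and 0.038, that of *H2afz* between −0.11 and 0.28 and that of *H2afv* between −0.25 and 0.012, and *H2afv* was at 0.0041 with upper-quartile scaling. Why these values moved was not tested.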
